A study of Mus musculus with 20 samples.

Results

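The DNA replication machinery was followed here as 45 mouse genes, listed by name for their role in replication. The rule uses no measured value, but the list was chosen with earlier results of these data known. All 45 had a row among the 17294 genes of the acute table and the 16195 genes of the prolonged table, and all 45 passed the filter on low values at both times. The RNA-seq libraries came from jejunal epithelium of female mice with a combined ablation of Kdm6a and Kdm6b (double knockout, DKO) and from controls labelled control/WT. Both targeted genes encode proteins of the family that demethylates lysine 27 of histone H3. The acute groups, taken 7 days after ablation, held 7 DKO and 5 control libraries, and the prolonged groups, taken 5 months after it, held 5 DKO and 3 control libraries. The series design names crypt epithelial cells. The recombinase, its promoter, the inducing agent, the age of the mice and whether controls received the agent are not given in the sources used here.

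Each origin of replication is marked in G1 by the origin recognition complex, onto which Cdc6 and Cdt1 load the Mcm helicase. At the start of S phase cyclin-dependent kinases and the GINS complex activate the helicase, and the polymerases, the sliding clamp and the single-strand binding protein RPA then copy the opened strands. In the small intestine replication is confined to the crypts, above all to the transit-amplifying cells, and most of these genes are transcribed at the entry into S phase under transcription factors of the E2F family.

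Values are read counts per gene scaled to the same total in each library (CPM), without correction for gene length, so levels are compared between libraries and not between genes. Fold changes are differences in mean log2(CPM + 1), DKO less control, which understate the change of genes with low values, and carry the standard error (SE) of limma-trend. A gene was called where the Benjamini-Hochberg adjusted p of limma over all tested genes was under 0.05. Libraries held between 9914738 and 26586045 reads in genes. Kdm6a lay between 38.5 and 45.7 CPM in acute DKO libraries against 57.7 to 72.6 CPM in controls, and between 44.4 and 55.3 CPM against 70.8 to 82.6 CPM at the prolonged time, and Kdm6b was also lower in all DKO libraries. These values include reads outside any deleted part. Of the 12 acute libraries, DKO 3 and DKO 4 stood apart on the first principal component, at 34.0 and 45.9 against -28.0 to 12.1 for the others. The 10 genes listed as epithelial markers, among them Epcam, Cdh1 and the keratin genes Krt8 and Krt19, summed to between 11312 and 12172 CPM in acute DKO libraries and between 11010 and 11514 CPM in acute controls.

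Replication genes were lower in acute DKO epithelium at almost every step of the process. Of the 45 genes, 41 were called lower in DKO and 0 higher, where 12.1% of the 13601 genes tested were called lower and 2.9% higher. The fold change was below 0 for 45 of 45 replication genes, against 64.6% of all tested genes, and its median was -0.61, against -0.07 over all tested genes. Single genes ranged from -0.82 for Gins1 to -0.02 for Orc4. For 37 of the 45 genes each of the 7 DKO libraries lay below each of the 5 controls, a pattern seen in 6.55% of all tested genes.

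The 4 genes without a call were Orc2, Orc3, Orc4 and Orc5, all subunits of the origin recognition complex. The groups also overlapped for Prim2, Pold3, Fen1 and Ccne1, which were called lower. In bulk RNA, fewer cells in S phase and less RNA of these genes per cell cannot be told apart.

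Summed over the 45 genes, the acute DKO libraries held 1167 to 1581 CPM, with a mean of 1318 ± 135 CPM (SD, n = 7), against 1845 to 2140 CPM and a mean of 1982 ± 123 CPM in controls (SD, n = 5). The DKO mean was 66.5% of the control mean, and the ranges did not overlap. DKO 1 was the lowest library and DKO 7 the highest of the DKO group. The median gene lay 0.76 below the control mean on the log2(CPM + 1) scale in DKO 1 and 0.32 below it in DKO 7. Between 40 and 44 of the 45 genes were below the lowest control in any single DKO library.

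**Figure D1:**
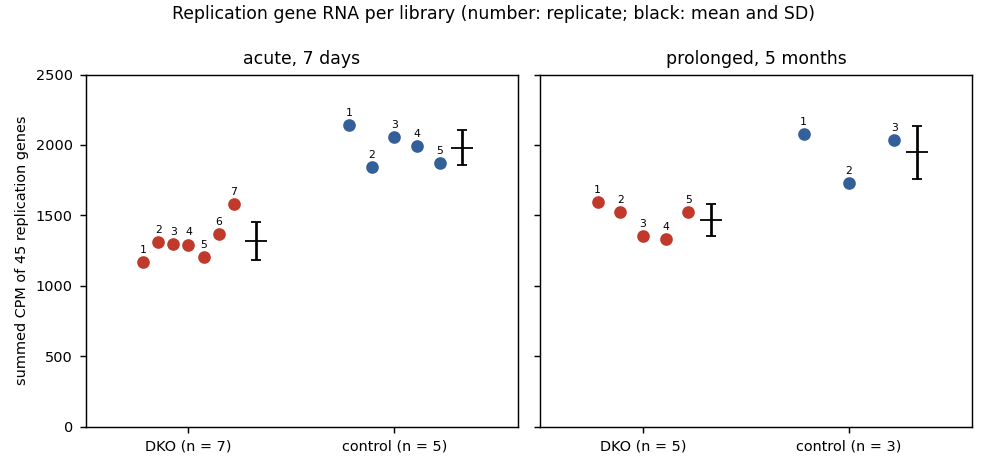
Summed CPM of the 45 replication genes in each library (points, numbered by replicate), with the mean and SD of each group in black, for acute (left) and prolonged (right) mice, DKO left of control in each panel. The acute DKO libraries sit between 1167 and 1581 CPM, below the controls at 1845 to 2140 CPM, and the prolonged DKO libraries sit between 1336 and 1596 CPM, below the controls at 1733 to 2076 CPM.

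The size of the acute difference depended on the scaling of the libraries. The median over all genes tested moved by 0.08 with TMM factors in limma, and the replication genes then had a median of -0.52 beside 0.01 over all genes. DESeq2, a different model that tested 15617 genes, gave a median of -0.53 beside 0.04 over all genes. Of all genes called at the acute time, 80.6% were lower in DKO on the CPM scale, 61.5% by limma on CPM scaled with TMM factors and 55.6% by DESeq2. limma with TMM factors, edgeR with TMM factors and DESeq2 each called 39 of the 45 replication genes lower and 0 higher, and in each of them the calls of Rpa3 and Pold3 were lost. Of all tested genes, limma with TMM factors called 8.23% lower, edgeR 7.95% lower and 4.9% higher, and DESeq2 8.35% lower and 6.66% higher. Without DKO 3 and DKO 4, 40 of 45 were called lower with a median of -0.60, where 9.64% of all tested genes were called lower and their median was -0.04. Pold3 lost its call there (adjusted p of limma = 0.0529), and also when DKO 1, DKO 3, DKO 5, DKO 6, control 1, control 3, control 4 or control 5 was left out alone (adjusted p between 0.0506 and 0.102). Rpa3 lost its call without control 3 (adjusted p of limma = 0.0502).

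At 5 months the same genes were again lower in DKO epithelium. Of the 45 genes, 30 were called lower and 0 higher, where 8.94% of the 13316 genes tested were called lower and 5.74% higher. The fold change was below 0 for 44 of 45 genes, Orc4 being the exception, against 49.6% of all tested genes. Its median was -0.40, against 0.00 over all tested genes, and single genes ranged from -0.70 for Cdc6 to 0.09 for Orc4. For 30 of the 45 genes each DKO library lay below each control, against 11.7% of all tested genes. The genes without a call were Orc2, Orc3, Orc4, Orc5, Orc6, Gins3, Gins4, Rfc3, Rfc5, Prim2, Pold3, Pole2, Rpa2, Rpa3 and Ccne1.

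Summed over the 45 genes, prolonged DKO libraries held 1336 to 1596 CPM, with a mean of 1466 ± 114 CPM (SD, n = 5), against 1733 to 2076 CPM and a mean of 1949 ± 188 CPM in controls (SD, n = 3). The DKO mean was 75.2% of the control mean, and the ranges did not overlap. edgeR called 30 of 45 lower and 0 higher, where it called 8.75% of all tested genes lower and 6.2% higher, and DESeq2 called 33 and 0, where it called 9.08% lower and 6.57% higher. With 3 controls the calls depended on single libraries. Without control 3, which had the fewest reads of all 20 libraries, 14 of 45 genes were called lower, with a median of -0.36, and calls over all tested genes were also fewer, at 5.13% lower. The calls then lost were those of Cdc6, Cdt1, Mcm6, Mcm10, Gins1, Gins2, Rfc1, Rfc2, Rfc4, Pola1, Pola2, Pold1, Pold2, Rpa1, Fen1 and E2f1. Without control 1, 20 of 45 were called lower, again with a median of -0.36, where 6.9% of all tested genes were called lower. Cdt1, Rfc4, Pold1, Pold2, Fen1 and E2f1 lost their calls without control 1, and each also without at least 2 of the 5 DKO libraries.

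**Figure D2:**
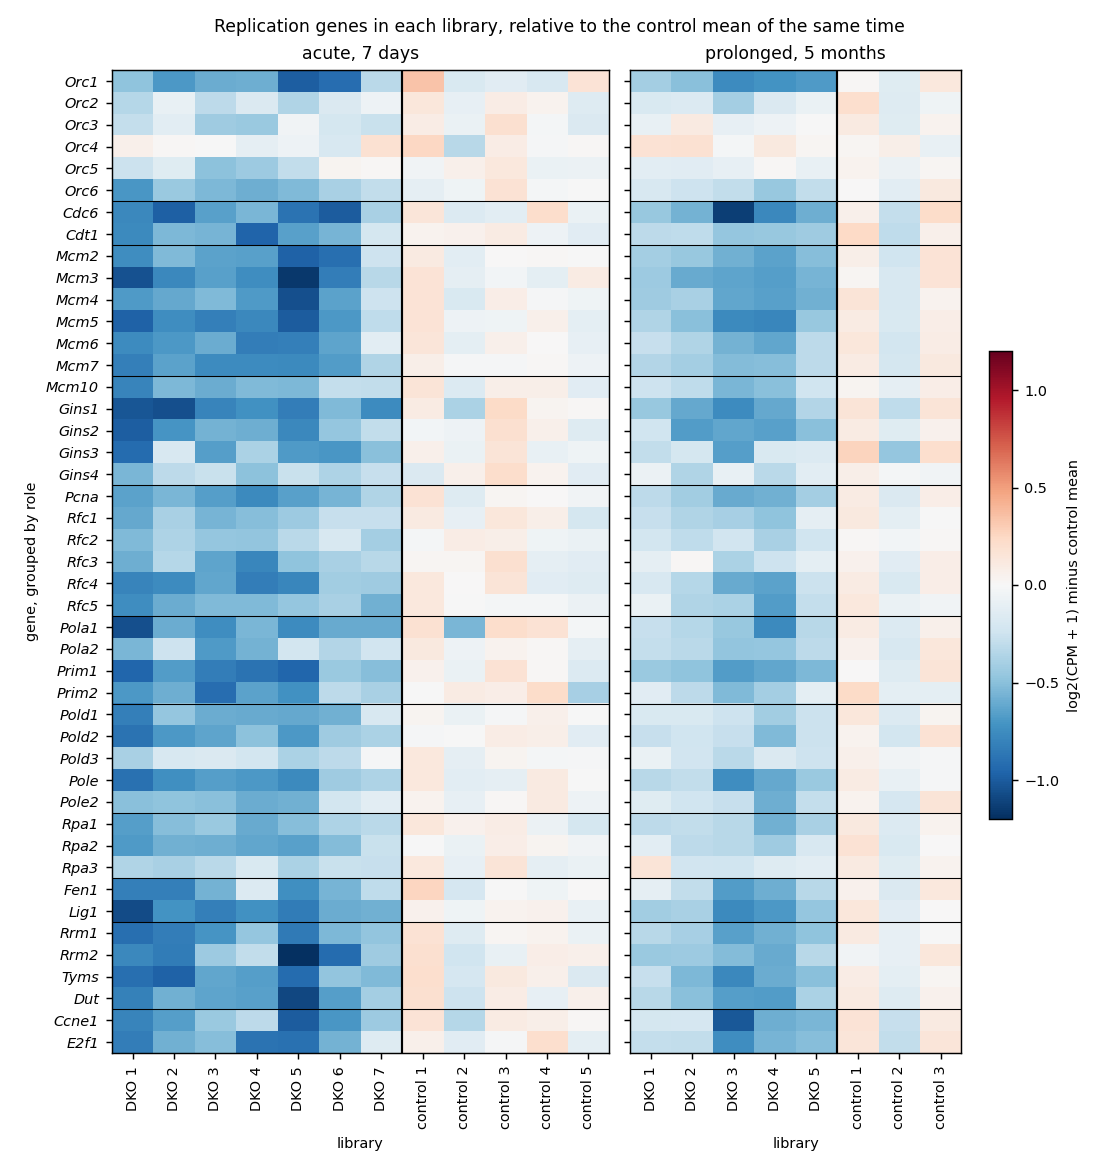
Each row is a replication gene, grouped by role, and each column a library, DKO left of control within the acute (left) and prolonged (right) panel; colour gives log2(CPM + 1) minus the control mean of the same time, blue for lower. Acute DKO 1 and DKO 5 hold the deepest blue and DKO 7 the palest of the acute DKO libraries, and the rows of Orc2 to Orc5 stay pale at both times.

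The promoters of these genes were examined for words bound by the factors known to drive S phase and mitotic genes. Windows running from 250 bases before to 50 bases after the annotated start were taken from RefSeq (build GRCm38.p6), and 38 of the 45 genes had at least 1 window. Mcm4, Gins1, Gins2, Gins4, Rfc2, Prim2 and Pole had none. The E2F words searched were TTTCCCGC, TTTCGCGC, TTTGCCGC and TTTGGCGC, on both strands, with overlapping matches allowed. At least 1 of them occurred in 15 of the 38 genes (39.5%), against 704 of 27025 genes in the table (2.6%) and 1 of 21 mitosis genes (4.76%). Among genes with a window, 14 of the 34 called lower at the acute time held an E2F word (41.2%), as did 1 of the 4 without a call (25%), which was Orc3. Among groups called lower throughout at that time, 0 of 4 nucleotide supply genes (Rrm1, Rrm2, Tyms and Dut) held one. The same was true of 0 of 3 RPA genes and of 0 of 2 S phase entry genes (Ccne1 and E2f1). The median GC content of the first window was 62.7% for the replication genes and 52.7% for all genes, and the E2F words are rich in G and C.

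The word CCAAT, read on both strands and known as the site of NF-Y, occurred in 22 of the 38 genes (57.9%), against 41.1% of all genes and 17 of 21 mitosis genes (81%). The cell cycle homology words TTTGAA and TTCGAA occurred in 6 of 38 (15.8%), against 21.7% of all genes and 16 of 21 mitosis genes (76.2%). A match in a window is a description of its letters and does not show binding.

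Promoter sequences are shown for the helicase loader gene Cdc6, the helicase genes Mcm5 and Mcm6 and the polymerase gene Pola1, each of which held an E2F word upstream of its start and was called lower at both times. Each runs 5′ to 3′ on the gene's strand over the 170 bases that end just before the annotated start, with E2F words in capitals. Positions in GRCm38.p6 are chr11:98907981-98908150 on the plus strand for Cdc6, chr8:75109339-75109508 on the plus strand for Mcm5, chr1:128359706-128359875 on the minus strand for Mcm6 and chrX:93632156-93632325 on the minus strand for Pola1. In Mcm5 2 words on opposite strands overlap in 1 block, and Mcm6 holds such a block and a separate word closer to its start.
Cdc6: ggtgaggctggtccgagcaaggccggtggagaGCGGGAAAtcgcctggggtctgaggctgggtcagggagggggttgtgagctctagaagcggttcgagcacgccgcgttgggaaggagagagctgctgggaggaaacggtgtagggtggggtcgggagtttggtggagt
Mcm5: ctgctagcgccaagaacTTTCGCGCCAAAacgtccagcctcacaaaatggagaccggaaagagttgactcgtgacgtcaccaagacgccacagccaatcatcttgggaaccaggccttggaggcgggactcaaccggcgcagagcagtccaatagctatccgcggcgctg
Mcm6: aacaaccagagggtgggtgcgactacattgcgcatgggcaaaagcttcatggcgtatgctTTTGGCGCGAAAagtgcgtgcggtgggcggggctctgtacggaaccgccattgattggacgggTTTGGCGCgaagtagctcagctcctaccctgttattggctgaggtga
Pola1: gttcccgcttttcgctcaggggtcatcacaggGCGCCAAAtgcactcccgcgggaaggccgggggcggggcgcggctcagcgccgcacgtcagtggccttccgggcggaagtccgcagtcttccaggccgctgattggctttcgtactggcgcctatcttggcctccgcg

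Shorter stretches of 28 bases around an E2F word are shown for a pair of origin recognition genes, of which Orc1 was called lower at both times and Orc3 at neither, and for Mcm7 and Gins3. They lie at chr4:108579417-108579444 on the plus strand for Orc1, chr4:34614966-34614993 on the minus strand for Orc3, chr5:138172031-138172058 on the minus strand for Mcm7 and chr8:95633508-95633535 on the plus strand for Gins3, and the capitals again mark the word. The words begin 27 bases before the start in Orc1, 41 in Orc3, 165 in Mcm7 and 41 in Gins3. Mcm7 held a second word, not shown, that begins at position 17 after the start. Shorter stretches were used because the 170 bases before these starts overlap annotated exons. The overlap was 53 bases for Orc1, 72 for Orc3, 170 for Mcm7 and 106 for Gins3. An E2F word was thus present beside the start of a gene with a strong fall and of one without a call.
Orc1: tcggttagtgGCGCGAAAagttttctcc
Orc3: catgcctcccTTTCCCGCacgccccgcc
Mcm7: atttcgaaccGCGGGAAAcagggtgtcc
Gins3: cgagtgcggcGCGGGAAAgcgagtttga

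The origin recognition complex was the group in which members differed most from each other. Of its 6 genes, 2 were called lower at the acute time and 1 at the prolonged time, with medians of -0.24 and -0.15, and the summed CPM of the group was 83.6% and 93.0% of control. Orc1, whose protein is the cell cycle regulated subunit, was 2.56, 3.69 and 4.65 CPM as the lowest, median and highest of the acute DKO libraries, against 8.0, 5.24, 5.44, 5.22 and 6.95 CPM in the controls. It was 4.54, 4.20, 3.37, 3.49 and 3.61 CPM in prolonged DKO libraries, against 6.43, 5.67 and 7.06 CPM in controls. No DKO library reached a control at either time, and Orc1 had fold changes of -0.66 ± 0.14 (SE; adjusted p of limma = 0.00741) and -0.61 ± 0.12 (adjusted p = 0.00677). Orc6, the smallest subunit, had an acute fold change of -0.50 ± 0.09 (adjusted p of limma = 0.00210) and a prolonged one of -0.30 ± 0.09 that missed the threshold (adjusted p = 0.0563), although its groups did not overlap at either time. limma and edgeR with TMM factors called Orc6 lower at the prolonged time (adjusted p = 0.0443 and 0.0479).

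The 4 remaining subunits, of the core of the complex, were not called at either time. Orc2 was 14.6, 16.8 and 18.2 CPM as the lowest, median and highest of the acute DKO libraries, against 21.0, 17.7, 20.3, 19.6 and 16.99 CPM in controls. At the prolonged time Orc2 was 15.4, 15.5, 13.0, 15.4 and 16.5 CPM in DKO libraries, against 20.4, 15.6 and 16.9 CPM in controls. Of the DKO libraries, 5 of 7 acute and 4 of 5 prolonged lay below the lowest control, and the fold changes were -0.22 ± 0.08 (adjusted p of limma = 0.102) and -0.20 ± 0.10 (adjusted p = 0.236). Orc3, an ATPase-like subunit, was 30.2, 34.1 and 40.1 CPM as the lowest, median and highest in acute DKO libraries, against 44.0, 39.1, 47.4, 40.7 and 36.5 CPM in controls. Its prolonged values were 35.3, 40.7, 35.3, 36.1 and 37.6 CPM in DKO libraries, against 40.6, 34.1 and 38.8 CPM in controls, and no DKO library lay below the lowest control. The acute fold change of Orc3 was -0.26 ± 0.08 (adjusted p of limma = 0.0558) and the prolonged one -0.03 ± 0.08 (adjusted p = 0.836). Without acute DKO 5 or acute control 5 Orc3 was called lower at the acute time (adjusted p = 0.0302 and 0.0351).

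Orc4 was 20.3, 23.2 and 26.4 CPM as the lowest, median and highest of the acute DKO libraries, against 27.7, 18.3, 24.8, 22.9 and 23.5 CPM in controls. In the prolonged groups Orc4 was 27.5, 27.6, 23.8, 26.4 and 24.7 CPM in DKO libraries, against 24.6, 25.5 and 22.7 CPM in controls. The acute DKO values lay within the control range, and no direction held. The fold changes were -0.02, with a 95% interval of -0.22 to 0.19, and 0.09, with one of -0.07 to 0.26, and the acute sign turned to 0.07 with TMM factors. Orc5 was 15.8, 18.8 and 23.1 CPM as the lowest, median and highest of the acute DKO libraries, against 21.9, 23.7, 24.7, 21.4 and 21.4 CPM in controls. In prolonged mice Orc5 was 18.9, 18.9, 19.4, 21.1 and 19.5 CPM in DKO libraries, against 21.5, 19.8 and 21.2 CPM in controls. Its fold changes were -0.22 ± 0.10 (adjusted p of limma = 0.152) and -0.09 ± 0.07 (adjusted p = 0.483). Acute DKO 6 and DKO 7 lay within the control range of Orc5 and the other 5 DKO libraries below it.

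Cdc6 and Cdt1, which load the helicase onto origins and are removed or blocked once S phase begins, were called lower at both times. Cdc6 was 6.48, 7.75 and 10.4 CPM as the lowest, median and highest of the acute DKO libraries, against 15.5, 12.4, 12.7, 16.3 and 13.1 CPM in controls. At 5 months Cdc6 was 11.4, 10.4, 6.74, 8.93 and 10.3 CPM in DKO libraries, against 16.7, 13.0 and 18.8 CPM in controls. The groups were separate at both times, with fold changes of -0.75 ± 0.12 (adjusted p of limma = 0.00157) and -0.70 ± 0.16 (adjusted p = 0.0118). The prolonged call was lost without control 3 (adjusted p = 0.0711). Cdt1 averaged 33.9 ± 5.65 CPM in acute DKO libraries and 51.7 ± 3.42 CPM in controls (SD, n = 7 and 5), and 38.4 ± 2.13 CPM and 51.3 ± 9.63 CPM at the prolonged time (n = 5 and 3).

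The 6 genes of the Mcm2-7 helicase, the ring that opens the double strand at the fork, fell together and were each called lower at both times with no overlap between the groups. Their fold changes ran from -0.79 to -0.64 at the acute time and from -0.58 to -0.42 at the prolonged time, and their summed CPM was 62.2% and 70.5% of control. Mcm3 had the largest acute change, at 28.9, 38.1 and 52.0 CPM as the lowest, median and highest of the DKO libraries, against 73.7, 60.9, 64.4, 60.5 and 70.4 CPM in controls. Prolonged Mcm3 values were 48.2, 42.8, 41.8, 41.1 and 44.3 CPM in DKO libraries, against 66.7, 57.4 and 73.6 CPM in controls. The fold changes of Mcm3 were -0.79 ± 0.12 (adjusted p of limma = 0.000853) and -0.58 ± 0.08 (adjusted p = 0.000767). Mcm7 had the smallest adjusted p of the ring at the acute time (8.79e-05), at 57.5 ± 6.75 CPM in DKO libraries and 92.4 ± 3.0 CPM in controls (SD, n = 7 and 5). The acute fold changes of the others were -0.67 for Mcm2, -0.64 for Mcm4, -0.76 for Mcm5 and -0.64 for Mcm6. At the prolonged time the call of Mcm6 was lost without control 1 (adjusted p of limma = 0.0509) or control 3 (adjusted p = 0.0682), and the other 5 genes of the ring kept theirs whichever single library was left out.

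**Figure D3:**
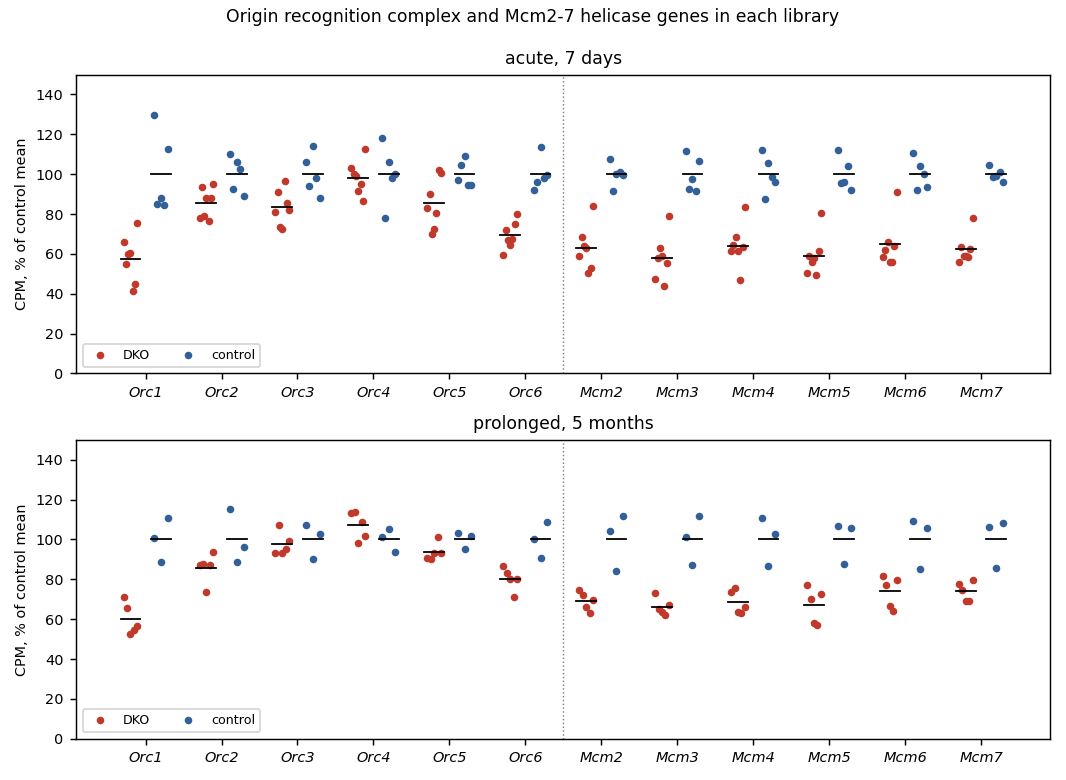
CPM of the origin recognition genes (left of the dotted line) and the Mcm2-7 helicase genes (right) in each library as a percent of the control mean of the same time, DKO (red) left of control (blue), with black lines at group means. Each helicase gene shows separate groups at both times, whereas Orc2 to Orc5 overlap.

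The helicase is activated through Mcm10 and the GINS complex of Gins1 to Gins4. All 5 genes were called lower at the acute time and 3 of 5 at the prolonged time, with medians of -0.58 and -0.37. Gins1 had the largest acute fold change of the 45 genes, at 4.99, 6.17 and 7.63 CPM as the lowest, median and highest of the DKO libraries, against 12.3, 8.59, 13.6, 11.7 and 11.6 CPM in controls. In prolonged libraries it was 5.49, 4.82, 4.26, 4.80 and 5.95 CPM in DKO, against 8.89, 6.19 and 8.88 CPM in controls. The acute DKO mean was 52.9% of the control mean, and the groups did not overlap at either time, although control 2 came close at 5 months. Gins1 had fold changes of -0.82 ± 0.12 (SE; adjusted p of limma = 0.000860) and -0.56 ± 0.14 (adjusted p = 0.0202), the second call being lost without control 1 (adjusted p = 0.0748) or control 3 (adjusted p = 0.102). Fold changes of Gins2 were -0.63 and -0.54, both called, and those of Mcm10 were -0.51 and -0.37, both called. Gins3 and Gins4 were called at the acute time only, at -0.58 and -0.36, with -0.30 and -0.19 at the prolonged time (adjusted p of limma = 0.302 and 0.196). Without prolonged control 3 Gins2 and Mcm10 were not called (adjusted p = 0.0536 and 0.0819), and without prolonged control 2 Gins3 was called lower (adjusted p = 0.0472).

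Pcna, the sliding clamp that holds the polymerases on the template, and its loader RFC, encoded by Rfc1 to Rfc5, were called lower in 6 of 6 genes at the acute time and 4 of 6 at the prolonged time. Pcna averaged 66.4 ± 6.15 CPM in acute DKO libraries and 100.9 ± 8.25 CPM in controls (SD, n = 7 and 5), and 63.7 ± 5.39 CPM and 88.3 ± 9.0 CPM at the prolonged time (n = 5 and 3). Rfc4, a small loader subunit, was 11.1, 11.8 and 15.1 CPM as the lowest, median and highest of the acute DKO libraries, against 22.5, 20.6, 22.9, 18.6 and 18.4 CPM in controls. It was 16.7, 15.0, 12.3, 11.98 and 15.996 CPM in prolonged DKO libraries, against 20.7, 16.9 and 20.5 CPM in controls. The acute groups lay well apart. The prolonged groups came close without overlap, with DKO 1 at 16.7 CPM just below control 2 at 16.9 CPM. Rfc4 had fold changes of -0.66 ± 0.10 (adjusted p of limma = 0.000955) and -0.41 ± 0.12 (adjusted p = 0.0437), and the second call was lost without any one of DKO 2, DKO 3, DKO 4, DKO 5, control 1 or control 3 (adjusted p between 0.0510 and 0.165). The other loader genes had acute fold changes of -0.44 for Rfc1, -0.40 for Rfc2, -0.51 for Rfc3 and -0.55 for Rfc5. Rfc3 and Rfc5 were not called at the prolonged time, at -0.17 ± 0.10 and -0.35 ± 0.11 (adjusted p of limma = 0.310 and 0.0567). DESeq2 called Rfc5 lower there (adjusted p = 0.0289).

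DNA polymerase alpha and primase, which lay down the RNA-DNA primers, were called lower in 4 of 4 genes at the acute time and 3 of 4 at the prolonged time. Prim1, the catalytic primase subunit, was 13.8, 15.1 and 20.02 CPM as the lowest, median and highest of the acute DKO libraries, against 28.8, 26.2, 31.3, 28.0 and 24.6 CPM in controls. Its prolonged values were 23.0, 22.4, 19.5, 20.2 and 21.5 CPM in DKO libraries, against 31.8, 28.3 and 35.4 CPM in controls. Both times showed a gap between the groups, with fold changes of -0.75 ± 0.10 (adjusted p of limma = 0.000583) and -0.55 ± 0.09 (adjusted p = 0.00168). Pola1, the catalytic polymerase subunit, had fold changes of -0.70 ± 0.13 and -0.43 ± 0.11, and Pola2 of -0.41 ± 0.09 and -0.37 ± 0.09. Prim2, the large primase subunit, was called at the acute time at -0.61 ± 0.13 but not at the prolonged time, at -0.30 ± 0.13 (adjusted p of limma = 0.138). Acute DKO and control libraries of Prim2 overlapped, with 5 of 7 DKO libraries below the lowest control. Without prolonged control 3 the calls of Pola1 and Pola2 at that time were lost (adjusted p = 0.0886 and 0.0809), and without prolonged control 1 that of Pola1 (adjusted p = 0.0714).

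The polymerases of the leading and lagging strands, epsilon and delta, were called lower in 5 of 5 genes at the acute time and 3 of 5 at the prolonged time, with medians of -0.55 and -0.31. Pole, the catalytic subunit of polymerase epsilon, was 14.7, 17.2 and 21.6 CPM as the lowest, median and highest of the acute DKO libraries, against 30.9, 25.8, 26.1, 30.4 and 28.2 CPM in controls. At 5 months it was 31.6, 32.5, 23.5, 25.9 and 29.2 CPM in DKO libraries, against 43.0, 37.5 and 39.7 CPM in controls. No DKO library of either time reached the lowest control, and Pole had fold changes of -0.65 ± 0.10 (adjusted p of limma = 0.000838) and -0.48 ± 0.10 (adjusted p = 0.00881). Pold1, the catalytic subunit of polymerase delta, had fold changes of -0.55 ± 0.09 and -0.26 ± 0.08, and the accessory subunit gene Pold2 of -0.60 ± 0.08 and -0.32 ± 0.09. The accessory subunit genes Pold3 and Pole2 had acute fold changes of -0.24 and -0.43, both called, and prolonged ones of -0.21 and -0.31 that missed the threshold (adjusted p of limma = 0.0519 and 0.138). For Pold3 the acute call was also lost with TMM factors, at -0.15 (adjusted p = 0.190). Without prolonged control 3 Pold1 and Pold2 were not called (adjusted p = 0.148 and 0.195), nor without prolonged control 1 (adjusted p = 0.143 and 0.101).

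RPA, the trimer that coats single-stranded DNA at the fork, is encoded by Rpa1, Rpa2 and Rpa3. All 3 genes were called lower at the acute time and Rpa1 alone at the prolonged time. Rpa2 was 20.5, 21.99 and 27.6 CPM as the lowest, median and highest of the acute DKO libraries, against 33.3, 31.6, 35.4, 34.3 and 32.5 CPM in controls. At the prolonged time Rpa2 was 24.8, 21.8, 21.5, 20.1 and 23.8 CPM in DKO libraries, against 30.9, 24.0 and 27.4 CPM in controls. The acute groups were separate and the prolonged groups overlapped, with DKO 1 above control 2. Fold changes of Rpa2 were -0.56 ± 0.08 (adjusted p of limma = 0.000444) and -0.28 ± 0.10 (adjusted p = 0.0764), and DESeq2 called the second (adjusted p = 0.0460). Rpa1 had fold changes of -0.49 ± 0.08 and -0.38 ± 0.08, the second call being lost without control 3 (adjusted p = 0.0504). Rpa3, the smallest subunit, had an acute fold change of -0.31 ± 0.08, and its prolonged fold change was -0.12 ± 0.11 (adjusted p of limma = 0.508). The acute call of Rpa3 was lost with TMM factors, at -0.22 (adjusted p = 0.0702).

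Fen1 and Lig1, the flap nuclease and the ligase that join Okazaki fragments on the lagging strand, were called lower at both times. Lig1 was 40.7, 52.0 and 57.7 CPM as the lowest, median and highest of the acute DKO libraries, against 89.7, 83.2, 89.3, 89.6 and 81.5 CPM in controls. In prolonged mice it was 57.7, 58.5, 45.2, 47.4 and 55.6 CPM in DKO libraries, against 84.9, 70.2 and 77.3 CPM in controls. Every DKO library was well below the controls of its time. Its acute fold change of -0.76 ± 0.08 had the smallest adjusted p among the 45 genes (7.07e-05), and the prolonged one was -0.55 ± 0.09 (adjusted p of limma = 0.00292). Fen1 had fold changes of -0.57 ± 0.12 and -0.40 ± 0.12, with 6 of 7 and 4 of 5 DKO libraries below the lowest control. The prolonged call of Fen1 was lost without any one of DKO 3, DKO 4, DKO 5, control 1 or control 3 (adjusted p between 0.0685 and 0.181).

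The supply of deoxynucleotides was represented by the ribonucleotide reductase genes Rrm1 and Rrm2, the thymidylate synthase gene Tyms and the dUTPase gene Dut. All 4 were called lower at both times with no overlap between groups, and their summed CPM was 61.5% and 70.6% of control. Tyms was 21.0, 26.3 and 30.0 CPM as the lowest, median and highest of the acute DKO libraries, against 48.6, 36.5, 45.8, 43.9 and 37.2 CPM in controls. Prolonged Tyms values were 29.7, 24.5, 20.8, 23.6 and 25.3 CPM in DKO libraries, against 38.5, 33.2 and 36.8 CPM in controls. The fold changes of Tyms were -0.73 ± 0.11 (adjusted p of limma = 0.000823) and -0.54 ± 0.10 (adjusted p = 0.00459). Those of Rrm1, Rrm2 and Dut were -0.68, -0.70 and -0.69 at the acute time and -0.49, -0.47 and -0.51 at the prolonged time. The calls of these 4 genes remained when any single library was left out at either time.

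Entry into S phase was represented by Ccne1, which encodes cyclin E1, the partner of Cdk2, and by E2f1, which encodes the founding E2F factor. E2f1 was 7.86, 10.1 and 13.9 CPM as the lowest, median and highest of the acute DKO libraries, against 16.3, 14.0, 15.3, 18.02 and 14.2 CPM in controls. At 5 months E2f1 was 10.8, 10.8, 7.63, 8.83 and 9.14 CPM in DKO libraries, against 15.0, 10.8 and 15.0 CPM in controls. The acute groups just missed each other and the prolonged groups overlapped through control 2. E2f1 had fold changes of -0.63 ± 0.13 (adjusted p of limma = 0.00586) and -0.48 ± 0.14 (adjusted p = 0.0390). The prolonged call was lost without any one of DKO 3, DKO 4, DKO 5, control 1 or control 3 (adjusted p between 0.0681 and 0.167). Ccne1 had an acute fold change of -0.62 ± 0.13, and its prolonged fold change of -0.51 ± 0.18 missed the threshold (adjusted p of limma = 0.0826), where DESeq2 called it (adjusted p = 0.0489).

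**Figure D4:**
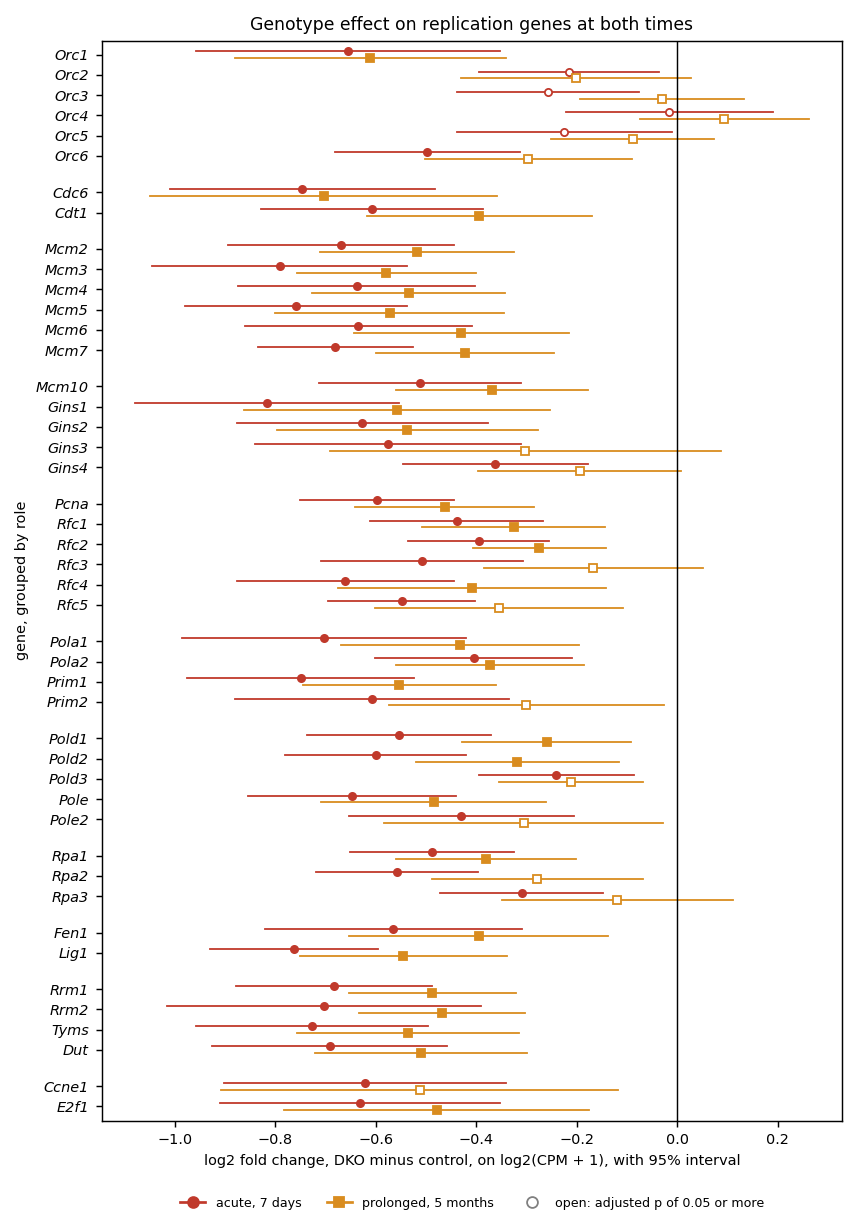
log2 fold change of each replication gene on log2(CPM + 1), DKO minus control, with its 95% interval from limma, at the acute (red circles) and prolonged (orange squares) time; open symbols mark genes not called. All 45 acute points lie left of 0, and 44 of the 45 prolonged points do, each to the right of the acute point of the same gene.

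On the CPM scale the point estimate of the genotype effect was less negative, or more positive, at 5 months in each of the 45 genes. No single difference from 7 days passed the threshold. With TMM factors the median of the 45 genes was -0.52 at 7 days and -0.39 at 5 months. The median over all genes then moved by 0.08 at 7 days and by 0.004 at 5 months. The smallest difference on the CPM scale was 0.01, for Orc2, and signs per gene with TMM factors are not given here. The prolonged fold change minus the acute one was above 0 for 45 of 45 replication genes and for 9189 of all 13088 genes tested at both times, with medians of 0.19 and 0.08. By limma 0 of 45 were called, where 5 of all genes (0.0382%) were called with a less negative or more positive effect at 5 months. By edgeR, too, 0 of 45 were called. At an unadjusted p of limma under 0.05 there were 5 replication genes. The share of all genes under that p is not given here, so this count is not read as a difference between the times. These 5 were Mcm7 (0.26 ± 0.11), Rfc3 (0.34 ± 0.14), Pold1 (0.29 ± 0.12), Pold2 (0.28 ± 0.12) and Rpa2 (0.28 ± 0.12), each with an adjusted p of 0.712. The interval of the difference was -0.37 to 0.46 for Cdc6 and -0.34 to 0.43 for Orc1, so these data do not show that any gene kept its effect unchanged.

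Other genes of the replication fork were listed apart from the 45. Of all tested genes, 12.1% were called lower at the acute time and 8.94% at the prolonged time. Of 28 further fork and origin factors, 21 were called lower and 0 higher at the acute time, and 9 and 0 at the prolonged time, with medians of -0.43 and -0.23. Clspn, which encodes the checkpoint mediator claspin, had the largest acute change (-0.83 ± 0.11, adjusted p of limma = 0.000480), and Cdc45, part of the active helicase, the largest prolonged one (-0.56 ± 0.09, adjusted p = 0.00132). Genes of this list without a call at either time included Donson (0.12 and 0.03) and Pold4 (0.10 and 0.19). Of 10 further nucleotide supply genes, 6 were called lower at 7 days and 3 at 5 months, with the thymidine kinase gene Tk1 at -0.94 ± 0.11 and -0.53 ± 0.12. Rrm2b, which encodes the reductase subunit induced by p53, was not called at either time (adjusted p of limma = 0.667 and 0.995).

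Genes that rebuild chromatin behind the fork were called lower in 9 of 9 tested at the acute time and 7 of 9 at the prolonged time, and the histone chaperone gene Asf1b fell most, at -0.83 ± 0.11 and -0.64 ± 0.13. Of 12 S phase regulators, 9 and 7 were called lower, with the repressor E2F gene E2f7 at -0.84 ± 0.13 and -0.49 ± 0.14. Cdc25a and E2f3 were not called at either time, at -0.04 and -0.12 in acute and -0.13 and 0.06 in prolonged mice. Mitosis genes were called lower in 21 of 24 at the acute and 17 of 24 at the prolonged time, with medians of -0.59 and -0.37. Their largest changes were in the kinetochore gene Nuf2 at the acute time (-0.74 ± 0.13) and in Birc5, which encodes survivin, at the prolonged time (-0.50 ± 0.09). Over all tested genes the shares called lower were 12.1% and 8.94%, and those called higher 2.9% and 5.74%. No gene of these 5 lists was called higher at either time. Without prolonged control 3 the counts called lower at that time were 1 of 28 further fork and origin factors, 1 of 10 nucleotide supply genes, 3 of 9 chromatin genes, 1 of 12 S phase regulators and 7 of 24 mitosis genes. Of all tested genes, 5.13% were called lower in that setting. Tk1 and E2f7 then lost their calls (adjusted p of limma = 0.0613 and 0.11). E2f7 also lost its call without DKO 3, DKO 4 or control 1 (adjusted p between 0.06 and 0.105).

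Markers of the epithelial cell types differed in how many were called and in which direction. For comparison, 12.1% of all tested genes were called lower at the acute time and 8.94% at the prolonged time. Paneth cell genes, of the antimicrobial cells at the crypt base, were called lower in 8 of 9 at the acute time and 6 of 9 at the prolonged time, with medians of -1.41 and -1.08. Their summed CPM lay between 715 and 3809 in acute DKO libraries and between 4329 and 8905 in controls, and between 1896 and 7105 against 7274 to 7968 at the prolonged time. Ang4 had fold changes of -2.04 ± 0.33 and -2.21 ± 0.35, and may share reads with near-identical copies. Stem cell genes were called lower in 4 of 10 and 2 of 10, with medians of -0.56 and -0.18 and Gkn3 at -1.43 ± 0.30 and -1.33 ± 0.23. All 10 fold changes were below 0 at both times. At 5 months those of Lgr5, Sox9, Axin2 and Rnf43 were small, at -0.09, -0.01, -0.11 and -0.13, without a call. Olfm4, called lower there, averaged 761 CPM in DKO libraries and 1311 CPM in controls, a large part of the list's sum. Their summed CPM was 907 to 1906 in acute DKO libraries against 2075 to 2732 in controls, and 1671 to 1925 against 2306 to 2665 at the prolonged time.

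Absorptive enterocyte genes, whose cells have left the cell cycle, had median fold changes of 0.26 and 0.20. At the acute time 5 of 15 were called higher and 1 of 15 lower, where 2.9% and 12.1% of all tested genes were. At the prolonged time 1 was called higher and 1 lower, where 5.74% and 8.94% of all tested genes were. The glucosidase gene Mgam rose by 0.68 ± 0.15 and by 0.53 ± 0.09, and the trehalase gene Treh had fold changes of -0.88 ± 0.25 and -0.77 ± 0.14. Their summed CPM was 43081 to 57572 in acute DKO libraries against 33318 to 48760 in controls, and 54433 to 58979 against 42307 to 55821 at the prolonged time. Acute DKO 1, the lowest library for replication genes, was the highest for enterocyte genes. DKO 7, the highest DKO library for replication genes, was the lowest DKO library for enterocyte genes. DKO 5, DKO 3, DKO 2 and DKO 6 lay between, with enterocyte sums of 54806, 50953, 50154 and 45705 CPM. Their replication sums rose in the same order, at 1205, 1296, 1313 and 1369 CPM. DKO 4 alone broke this inverse order. It had nearly the same enterocyte sum as DKO 7, at 43398 against 43081 CPM, but its replication genes summed to 1294 CPM against 1581 CPM. DKO 4 was also the highest library on the first principal component, at 45.9. The acute count of enterocyte genes called higher was 2 without any one of DKO 1, DKO 3, control 1, control 2, control 3 or control 4, and 3 without DKO 2, without both DKO 3 and DKO 4, or with TMM factors. The part of cell type shares in the fall of the replication genes was not tested. The acute call of Treh was lost without DKO 3 or any one of control 2, control 3, control 4 and control 5 (adjusted p of limma between 0.0589 and 0.0696).

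**Figure D5:**
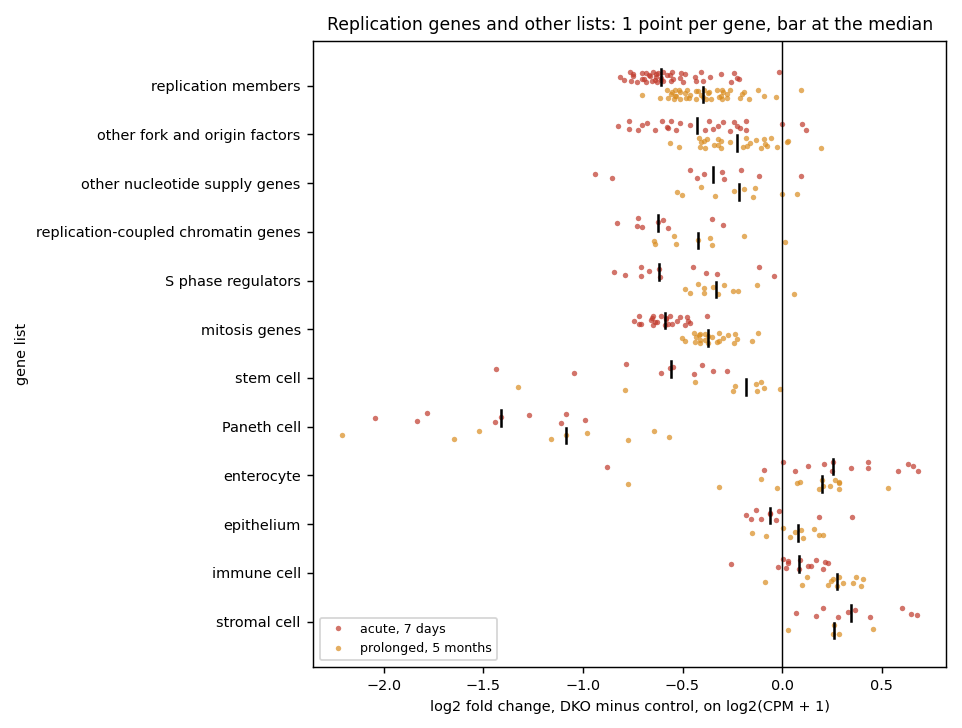
log2 fold change of each gene, DKO minus control on log2(CPM + 1), for the 45 replication genes and 11 other lists, with acute (red) above prolonged (orange) in each row and a black bar at the median. The acute points of replication, chromatin, S phase and mitosis genes lie left of 0, as do their prolonged points other than Orc4, Asf1a and E2f3. The medians of the Paneth cell genes lie farther left, and enterocyte genes lie mostly right of 0.

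The remaining marker lists held few calls. They stand beside 12.1% of all tested genes called lower and 2.9% higher at the acute time. At the prolonged time these shares were 8.94% and 5.74%. Goblet cell genes were called lower in 1 of 8 and higher in 1 of 8 at the acute time, Spink4 at -0.75 ± 0.12 and Zg16 at 0.72 ± 0.08, and lower in 2 and higher in 1 at the prolonged time. Enteroendocrine genes were lower in 3 of 9 and in 4 of 9, with Gcg at -0.89 ± 0.16 and -1.10 ± 0.19, and Chga was called higher at the prolonged time (0.42 ± 0.11). Of 6 tuft cell genes tested, limma called 0 at the acute time, with a median of -0.23. Among the epithelial markers Vil1 was higher (0.35 ± 0.09) and Cdh1 lower (-0.18 ± 0.05) at the acute time, and 0 of 10 were called at the prolonged time. Vil1 lost its call without control 3 (adjusted p of limma = 0.0558), and Cdh1 with TMM factors (adjusted p = 0.423) and without any one of DKO 1, DKO 2, DKO 3, control 1, control 2, control 3 or control 4. Immediate early genes, a class that responds quickly to stress, were called higher in 3 of 12 and 1 of 12, with Fos at 0.76 ± 0.15 at the acute and Nr4a1 at 0.53 ± 0.15 at the later time. The prolonged calls of Chga and Nr4a1 each depended on several single libraries, with adjusted p of limma up to 0.103 for Chga without control 2 and 0.125 for Nr4a1 without control 3.

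No immune or stromal marker was called by limma at either time. Immune genes had medians of 0.09 and 0.27. Stromal genes summed to between 39.6 and 713 CPM in acute DKO libraries, highest in DKO 3, against 50.2 to 214 CPM in controls, with a median fold change of 0.35 that was -0.01 without DKO 3 and DKO 4. At the prolonged time they summed to between 19.5 and 34.7 CPM against 19.0 to 21.1 CPM, and 5 of the 14 listed genes passed the filter. The replication genes had a median of -0.60 without DKO 3 and DKO 4, so their acute difference was about as large without those libraries.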

How the data were processed

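The 20 libraries came from 2 deposited tables, 1 per time. The values are CPM, computed by the authors from gene counts and deposited without replicate pooling, and each library sums to the same total. The submitters' processing notes name the build mm9, featureCounts 1.6.2, bedtools 2.27.1, SAMtools 1.9, DESeq2, STAR and FastQC 0.11.5. No strand setting is stated, so reads of overlapping genes cannot be told apart.

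Each time was fitted alone, on log2(CPM + 1), with limma 3.58.1 under R 4.3.3 (trend option), for genes with a CPM of 0.5 in at least 5 acute or 3 prolonged libraries. The difference between times was tested over the root of the summed squared standard errors, on 13088 genes. In 100% of values the CPM were whole multiples of 1 step per library, within 0.01 reads, so recovered reads were also tested with edgeR 4.0.16 and DESeq2 1.42.0. For prolonged control 3 that evidence is weaker, its step lying near a power of 10. Within groups, library pairs varied by 6.41 to 146 times the sampling variance, so all 20 were kept as separate samples. The labels call them biological replicates.

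The 45 genes and the other lists were chosen with earlier results of these data known. For the gene of each role with the largest acute fold change and for those not called at the acute time, the value of each library is given, or the lowest, median and highest of the 7 acute DKO libraries. Of each other list, the called gene with the largest fold change in each direction is named. The prolonged result of 1 list is not reported here. Other genes named were chosen after their values were seen. Alternatives for the other lists were also added after seeing the data. Fits were checked on simulated data.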

Additional observations from a re-analysis of the deposited data

Results flagged for a closer look

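Of 135 groups of 4 to 10 libraries screened, 1 per gene and group, 6 held a library far from the others by Dixon's test, where chance alone gives about 1 in 20. Acute DKO 7 was the highest DKO library for Mcm6, at 135 CPM against 82.7 to 97.2 CPM in the other 6 DKO libraries, for Mcm7, at 71.9 CPM against 51.8 to 58.7 CPM, and for Rpa2, at 27.6 CPM against 20.5 to 23.0 CPM. Acute DKO 1 was the lowest DKO library for Pola1, at 15.0 CPM against 18.7 to 21.7 CPM. Prolonged DKO 3 was the lowest for Gins3, at 3.16 CPM against 4.38 to 4.87 CPM in the other DKO libraries, and prolonged DKO 4 the lowest for Pold2, at 45.7 CPM against 54.9 to 56.2 CPM.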

How the results depend on the processing

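The acute count of 41 replication genes called lower ranged from 39 to 41 when 1 library was left out, where 7.44% to 13.4% of all tested genes were called lower. It was 41 under other pseudocounts and filters, where 9.17% to 13.6% of all tested genes were called lower. The prolonged count of 30 ranged from 14 to 33 when 1 library was left out, 14 being the count without control 3. Of all tested genes, 5.13% to 8.67% were then called lower. Under other pseudocounts, filters, scalings and tools it ranged from 29 to 33, where 7.29% to 9.66% of all tested genes were called lower. Replicate numbers did not pair the libraries: correlations of same-numbered deviations ran from -0.20 to 0.20 over 5 acute pairs and from -0.24 to -0.16 over 3 prolonged pairs. With the replicate number as a block, 36 genes were called lower at the acute time and 6 at the prolonged time, with medians of -0.67 and -0.37, where 6.09% and 2.71% of all tested genes were called lower. With blocks by animal number 39 were called lower at the acute time, where 7.99% of all tested genes were called lower. In that fit DKO 3 and DKO 4 formed a block without a control, and control 5 one without a DKO library. Those libraries therefore did not bear on the genotype difference there. No replication gene was called higher under any of these settings. Orc4 had an acute fold change of 0.0721 with TMM factors, 0.0662 with edgeR and 0.0774 with DESeq2, against -0.02 as reported, and one from -0.0987 to 0.0451 when 1 library was left out, above 0 without DKO 6, control 1 or control 3. Orc3 had a prolonged fold change from -0.102 to 0.0214 when 1 library was left out, above 0 without control 1. The causes of these shifts were not tested. The prolonged time has 3 controls, and how depth bears on these shifts was not tested.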
